A study of Homo sapiens with 18 samples.

Results

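Open chromatin around EGFR, the gene whose product erlotinib inhibits, was described from every ATAC-seq peak called in a window of about 600 kb (hg19, chromosome 7, 54800000 to 55400000). The window holds the EGFR body (55086725 to 55275031, plus strand), 287 kb before its annotated start and the sequence after its end. Peaks of 18 libraries that shared at least 1 bp were merged into regions, and 43 of the 79483 regions of the series lay in the window. The cells were PC9, a lung cancer line of human origin whose growth depends on mutant EGFR, with 3 libraries (a, b and c) in each of 6 groups. DTP (drug-tolerant persisters) are PC9 cells still alive after 8 days of 1 µM erlotinib, renewed with the medium, and PC9 is the unsorted population under DMSO, the vehicle, for a time the labels leave out. The other 4 groups received 1 µM erlotinib or DMSO for 12 h before being sorted by flow cytometry on the Aldefluor signal, which reports the activity of aldehyde dehydrogenase (ALDH): ALDH-high erlotinib, ALDH-high DMSO, ALDH-low erlotinib and ALDH-low DMSO. All cells were frozen and thawed before tagmentation. Whether the 3 libraries of a group are separate cultures is not labelled, and p-values therefore refer to differences among libraries that may be technical.

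EGFR is a receptor tyrosine kinase that binds EGF-family ligands, dimerises with other ERBB receptors and signals through the RAS-MAPK and PI3K pathways. Erlotinib competes with ATP in its kinase domain. The gene is transcribed from a GC-rich promoter without a TATA box, and its long first intron, which takes up most of its length, is known to hold enhancers. In a gene table of another build the protein-coding neighbours were SEC61G before EGFR, which encodes a subunit of the ER translocation channel, and LANCL2 after it. Exon positions in hg19 were not used here, so regions inside the gene are given as gene body, without saying whether they are intronic or exonic. Positions are given in kb from the annotated start to the region's midpoint.

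The sequence just before the EGFR start is shown because a peak covered the annotated start in every library. RefSeq (GRCh38.p14, chr7:55018767-55019016, plus strand) gives these 250 bases, with matches to the GC box (GGGCGG on either strand), the binding site of SP1-family factors, in capitals:
EGFR promoter: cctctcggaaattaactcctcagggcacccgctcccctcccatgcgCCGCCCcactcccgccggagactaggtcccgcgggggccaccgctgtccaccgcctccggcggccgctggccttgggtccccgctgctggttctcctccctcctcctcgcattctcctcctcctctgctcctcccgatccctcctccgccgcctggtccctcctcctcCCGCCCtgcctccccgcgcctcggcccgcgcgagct
These bases had a GC content of 73.6%, higher than 86.9% of the 35116 promoter windows of that table, whose median was 58%. They held 2 GC boxes, a motif found in 42.6% of all windows, and no match to TATAAA (10.7% of windows), CCAAT (32%), the AP-1 motif TGANTCA (6.57%) or the TEAD motif GGAATG (11.9%), searched on both strands. The motifs did not overlap each other. The table lists 2 starts for EGFR, of which this is the one at the gene's outer end, and its place relative to the hg19 start was not compared base by base.

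The EGFR window was dense in called peaks. All 18 libraries held 18 of its 43 regions (41.9%), and 10 regions (23.3%) had a peak in 1 library, against 17.7% and 21.2% of the 79483 regions of the series. Windows of the same length tiled over chromosomes 1 to 22 and X had a median of 16 regions and of 2 regions held by all libraries, and 99.9% of the 4657 windows with any region had fewer than 18 regions held by all libraries. The called sequence in the window averaged 38.1 kb per library, against a median of 6.19 kb over those windows. These comparisons with other windows are descriptions without a test, and the DNA copy number of the locus was not examined. The first region outside the window was at 54796031 to 54796679 on one side and at 55411886 to 55413413 on the other, and each was held by 1 library.

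By position, 21 regions lay upstream, 1 at the promoter, 13 in the gene body and 8 downstream. Regions held by all libraries numbered 10 upstream, 1 at the promoter, 6 in the gene body and 1 downstream. The score of each peak is the authors' own and its scale is not stated, so it is read as a rank or percentile within its list, with 100 at the top. Among the 18 regions held by all libraries, the median percentile over libraries lay between 63.5 and 100, and its median over regions was 91, against 77.6 for the 14070 regions of the genome held by all libraries.

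**Figure D1:**
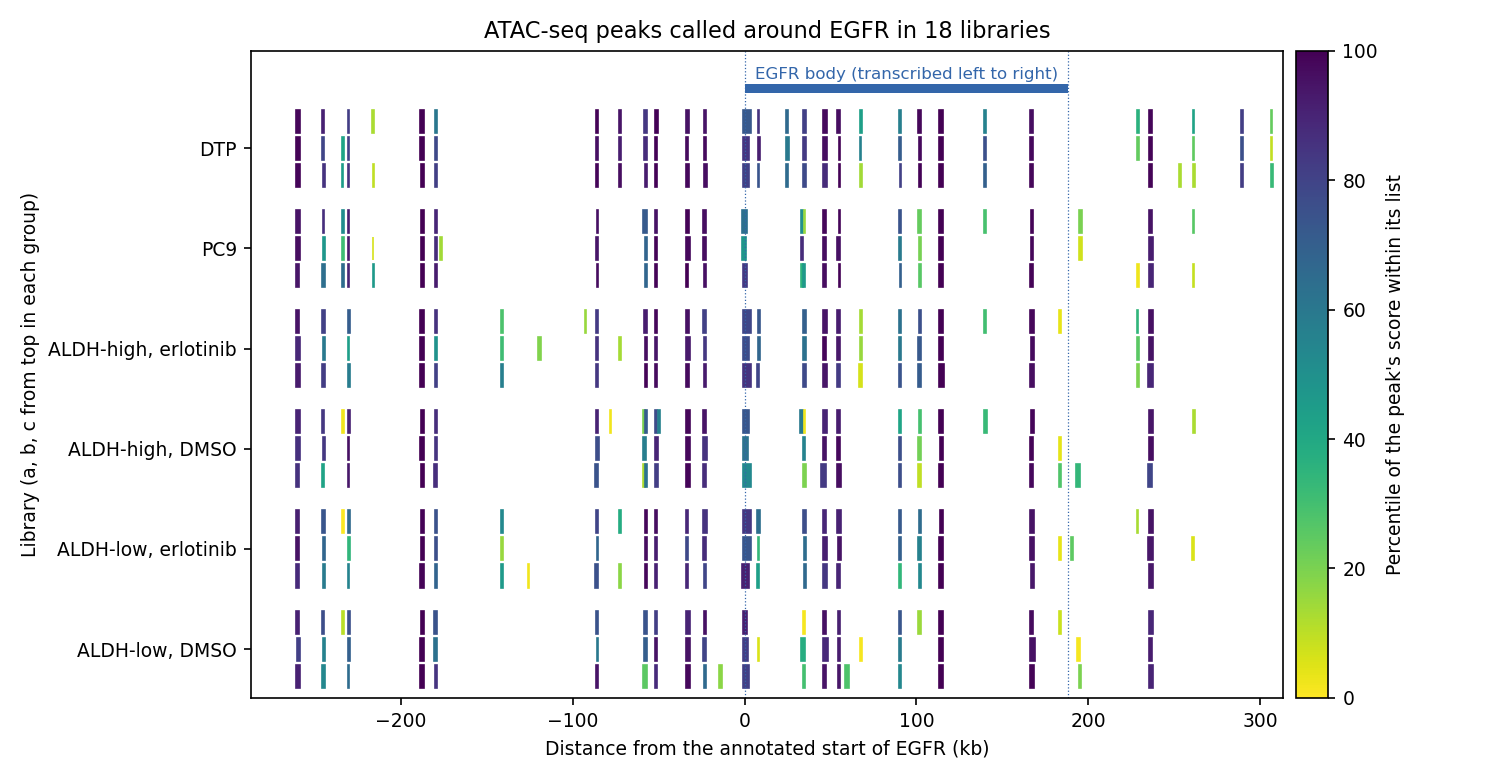
Peaks called around EGFR in the 18 libraries, by distance from the annotated start in kb. Each row is a library, each bar a peak (drawn with a thin edge so that narrow peaks stay visible), and the colour gives the percentile of the peak's score within its list. The 18 columns present in every row are the regions held by all libraries, and the DTP rows hold 29 to 30 peaks, against 23 to 24 in the PC9 rows.

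A pair of regions ranked near the top of every list. The +114.4 kb region in the gene body (chromosome 7, 55199857 to 55202468) ranked between 1 and 43 by score among all peaks of a library, and was the highest-scoring peak in DTP library b and in ALDH-high DMSO library b. It ranked 3, 1 and 17 in DTP libraries a, b and c, against 3, 3 and 4 in PC9 libraries. The upstream region at −187.5 kb (54897994 to 54900375) ranked between 1 and 302, with its best rank in PC9 library b. In the sorted cells the +114.4 kb region had places further down the list with erlotinib, at 14, 43 and 21 in ALDH-high erlotinib libraries against 2, 1 and 2 in ALDH-high DMSO libraries, and at 6, 10 and 19 in ALDH-low erlotinib libraries against 2, 2 and 4 in ALDH-low DMSO libraries. Its scores did not follow its ranks: they were 1841, 1144 and 1566 in ALDH-high erlotinib libraries, against 1573, 1594 and 1467 in ALDH-high DMSO libraries. They were 2080, 1741 and 1348 in ALDH-low erlotinib libraries, each above the 1346, 1226 and 1129 in ALDH-low DMSO libraries. Scores of different lists need not share a scale, and no change is read from either measure. The peak stayed above the 99th percentile of the list in each of these libraries, with 99.9 the lowest value.

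The promoter region was called in every library and reached further into the gene in DTP than in PC9. The merged region spanned 55085380 to 55090636 and was the widest in the window, at 5257 bp. The peak ended 3911, 2479 and 2525 bp after the annotated start in DTP libraries, against 1513, 814 and 1182 bp in PC9 libraries. Its start varied less, between 814 and 1066 bp before the gene in DTP libraries and between 835 and 1345 bp in PC9 libraries. Its width was 4747, 3294 and 3592 bp in DTP libraries, against 2859, 2035 and 2018 bp in PC9 libraries, and the groups did not overlap. Of 24186 regions held by all 6 of these libraries, 15.1% were wider in every DTP than in any PC9 library, and so were 5 of 19 in the EGFR window, while none of the 19 was narrower without overlap (6.64% in the genome). Within the promoter region, the stretch between 1.51 and 2.48 kb after the start (55088239 to 55089204, 966 bp) was called throughout in all DTP and no PC9 libraries. The same stretch was called throughout in all 6 erlotinib libraries of sorted cells and in 3 of the 6 DMSO libraries, 2 of them ALDH-high and 1 ALDH-low. In the other DMSO libraries the peak ended inside the stretch. It ended at 55088972 in ALDH-high library b, at 55088981 in ALDH-low library b and at 55088265 in ALDH-low library a.

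In sorted cells the promoter peak was 4682, 3559 and 4608 bp wide in ALDH-high erlotinib libraries, against 3607, 3161 and 4614 bp in ALDH-high DMSO libraries, and these overlapped. It was 4711, 4796 and 3718 bp wide in ALDH-low erlotinib libraries, against 2392, 3041 and 3464 bp in ALDH-low DMSO libraries, which did not overlap. Non-overlap in this direction was common, at 22.4% of the 16026 regions held by all 6 ALDH-low libraries, and the window had it in 3 of 18. In ALDH-high cells the window had it in 0 of 19, against 16.8% in the genome, and over both fractions together in 0 of 18, against 3.61%. The width measure was chosen after its values were seen and was not tested.

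The rank of the promoter peak showed no such separation in DTP. To compare ranks between libraries, each list was reduced to its 26225 highest-scoring peaks, the length of the shortest list. In these the promoter peak stood at percentiles 55.3, 73.8 and 66.7 in DTP libraries, against 44.3, 21.2 and 73.4 in PC9 libraries, and the ranges overlapped. It stood at 66.9, 69.8 and 77.3 in ALDH-high erlotinib libraries, against 66.7, 56.1 and 45.4 in ALDH-high DMSO libraries, where the lowest erlotinib and the highest DMSO value nearly touch. The ALDH-low groups overlapped, with 75.2, 63 and 89.3 in erlotinib libraries, against 91.4, 81.8 and 81.1 in DMSO libraries. Over all 18 libraries its median percentile in the full lists was 79.7, and 12 of the other 17 regions held by all libraries had a higher one.

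**Figure D2:**
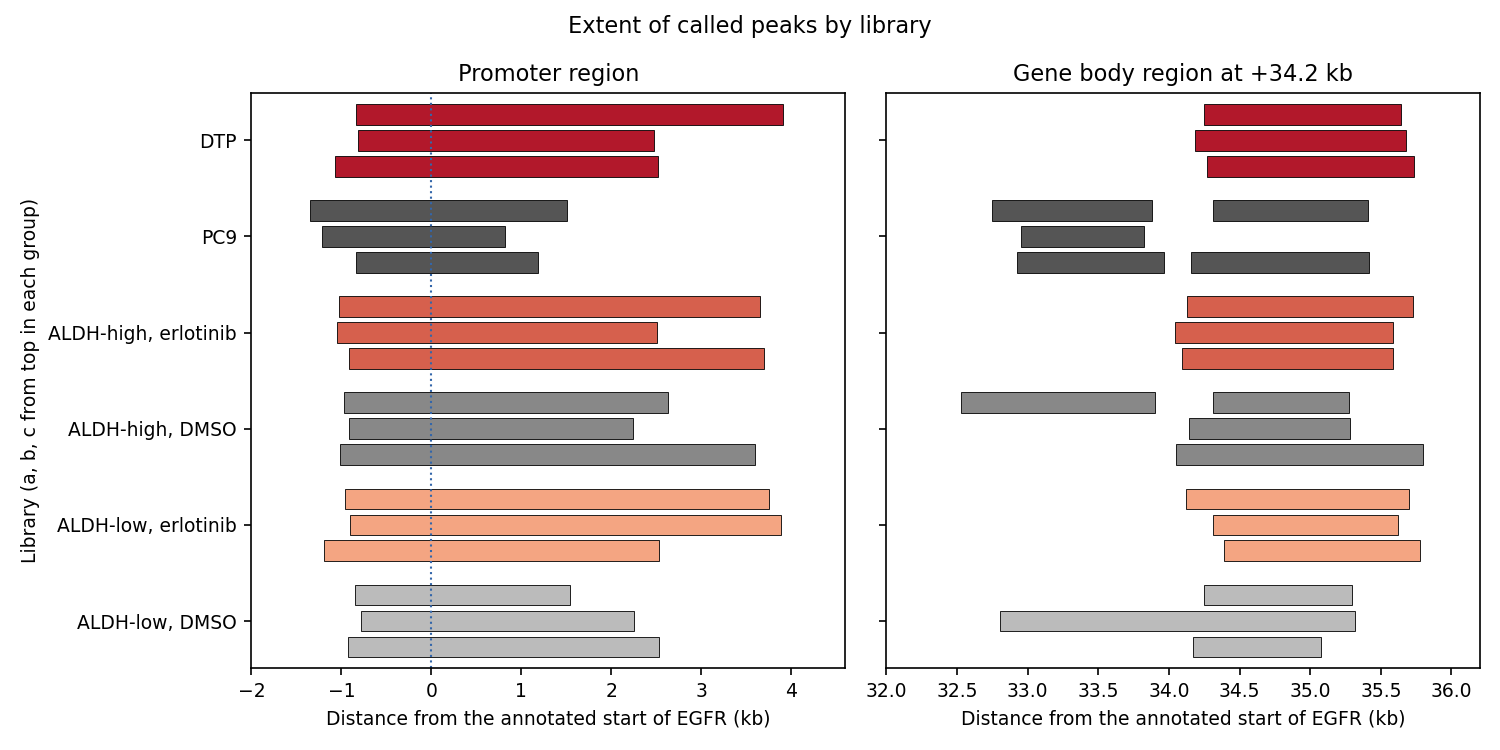
Extent of the called peaks at the promoter (left) and in the gene body around +34.2 kb (right), by distance from the annotated start in kb, with 1 row per library and colours by group. At the promoter the DTP bars end 2479 to 3911 bp and the PC9 bars 814 to 1513 bp after the start, and at +34.2 kb the left-hand peak is present in the PC9 rows and absent from the DTP rows.

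Persisters gained 6 regions around EGFR and lost none. Gained means called in all 3 DTP and in no PC9 libraries, which held for 6 of the 33 regions in the window called in any of these libraries (18.2%), against 6.75% of 65904 regions in the genome. The 6 include the −72.4 kb region, to which earlier results of these data had pointed, and so do the counts under other settings. The share is therefore a description. Lost, the reverse, held for 0 of 33, against 3.68% in the genome. Without PC9 library c, 1 region was lost, at +194.6 kb (55279625 to 55282958). Leaving out a library eases the rule for every region of the genome. Genome shares are not given for such counts, here or below, and an added gain or loss is not read as a result about EGFR. No region can be tested alone with 3 against 3 libraries, since the smallest exact permutation p is 0.1. A peak missing from a list was not called there, which does not show closed chromatin, and read depth is unknown. In such bulk libraries, fewer cells with an open region and less opening per cell cannot be told apart.

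The gained region of highest rank was upstream, at −72.4 kb (55013622 to 55015081). Its score was 352, 331 and 418 in DTP libraries, which are percentiles 94.7, 92 and 96.7 of those lists, and it was not called in PC9 libraries. In sorted cells it was called in ALDH-high erlotinib library b and in ALDH-low erlotinib libraries a and c, at percentiles 13.5, 38.4 and 17.5, and in none of the 6 DMSO libraries. It was near the top of the persister lists, in the lower part of the 3 lists that held it at 12 h, and not called in the other 9 sorted libraries. Between these and the persisters, time and sorting differ together. Within 10 kb of 55.014 Mb the other region was at −77.9 kb (55008383 to 55009212), called only in ALDH-high DMSO library a at percentile 2.23. The −72.4 kb region was pointed to beforehand by earlier results of these data and is a description.

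Inside the gene, 3 regions were gained in DTP. The +8.2 kb region (55094191 to 55095630) had scores of 258, 326 and 210 in DTP libraries and was not called in PC9 libraries. It was also called in all 6 erlotinib libraries of sorted cells and in 1 of the 6 DMSO libraries. The +25 kb region (55111084 to 55112432), at percentiles 65.9, 59.4 and 65.4, was called in the DTP libraries and in no other. The +67.5 kb region (55153539 to 55154966) stood lower, at 44, 56.6 and 13.8 in DTP libraries.

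Downstream of the gene, the +289.3 kb region (55375334 to 55376771) was called in the DTP libraries alone, at percentiles 81.7, 75.8 and 82.4. The +306.5 kb region (55392629 to 55393862), also called in DTP alone, lay near the floor at 23.7, 9.2 and 32.7. With lists of equal size 6 of 28 regions were again gained, against 5.47% of regions in the genome, but not the same ones. Those at −72.4, +8.2, +25 and +289.3 kb remained, those at +67.5 and +306.5 kb did not, and those at +101.7 and +139.9 kb joined them. The 4 that remained had percentiles of at least 59.4 in every DTP library.

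The +101.7 kb region of the gene body (55187390 to 55189551) was called in both groups but differed in rank between them. Its score was 435, 450 and 602 in DTP libraries, at percentiles 98.1, 97.8 and 99.6, against 95.9, 91 and 98.9 in PC9 libraries, at percentiles 23.8, 20.6 and 25.9. Its width did not differ in the same way, at 1644, 1459 and 1241 bp in DTP libraries, against 1428, 1530 and 1361 bp in PC9 libraries. Being present in both groups, it was not gained in the lists as deposited, but it was gained at a score of at least 100, where 5 of 30 regions were gained against 6.52% in the genome, and in lists of equal size. In lists of equal size it stood at 96.9, 96.2 and 99.3 in DTP libraries and was outside the PC9 lists.

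After 12 h of erlotinib the +101.7 kb region ranked below the DTP libraries and above the DMSO libraries of sorted cells. In lists of equal size it stood at percentiles 62.1, 64.1 and 55.2 in ALDH-high erlotinib libraries, against 11.8 and 9.09 in ALDH-high DMSO libraries a and b, while it was outside the list of c. It stood at 46.1, 39.6 and 42.3 in ALDH-low erlotinib libraries, against 14.3 in ALDH-low DMSO library a, while b and c did not call it. Every erlotinib library ranked it above every DMSO library, and every DTP library above every erlotinib library at 12 h. The 12 h libraries differ from DTP in sorting as well as in time, and these cannot be told apart. The share of genome regions with this order is not given. This region was singled out after its values were seen.

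Part of a gene body region was lost in DTP, although merging hid it. The +34.2 kb region (55119256 to 55122520) was held by all 18 libraries, but held a pair of adjacent peaks that were joined by a peak of ALDH-low DMSO library b. The first peak, covering 55119677 to 55120549 (873 bp, 33 to 33.8 kb after the start), was called in all 3 PC9 libraries and in no DTP library. It was also absent from all 6 erlotinib libraries and present in 1 ALDH-high and 1 ALDH-low DMSO library. At the second peak, the last bases from 55122143 to 55122365 were called in all DTP and no PC9 libraries. Counted by base, 13.9% of the 57348 bases called around EGFR in either group were gained in DTP and 1.57% lost, against 5.22% and 2.63% of called bases in the genome. The gained bases include 1266 bp at −72.4 kb, the region to which earlier results of these data had pointed. The count by base was added after seeing the data.

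**Figure D3:**
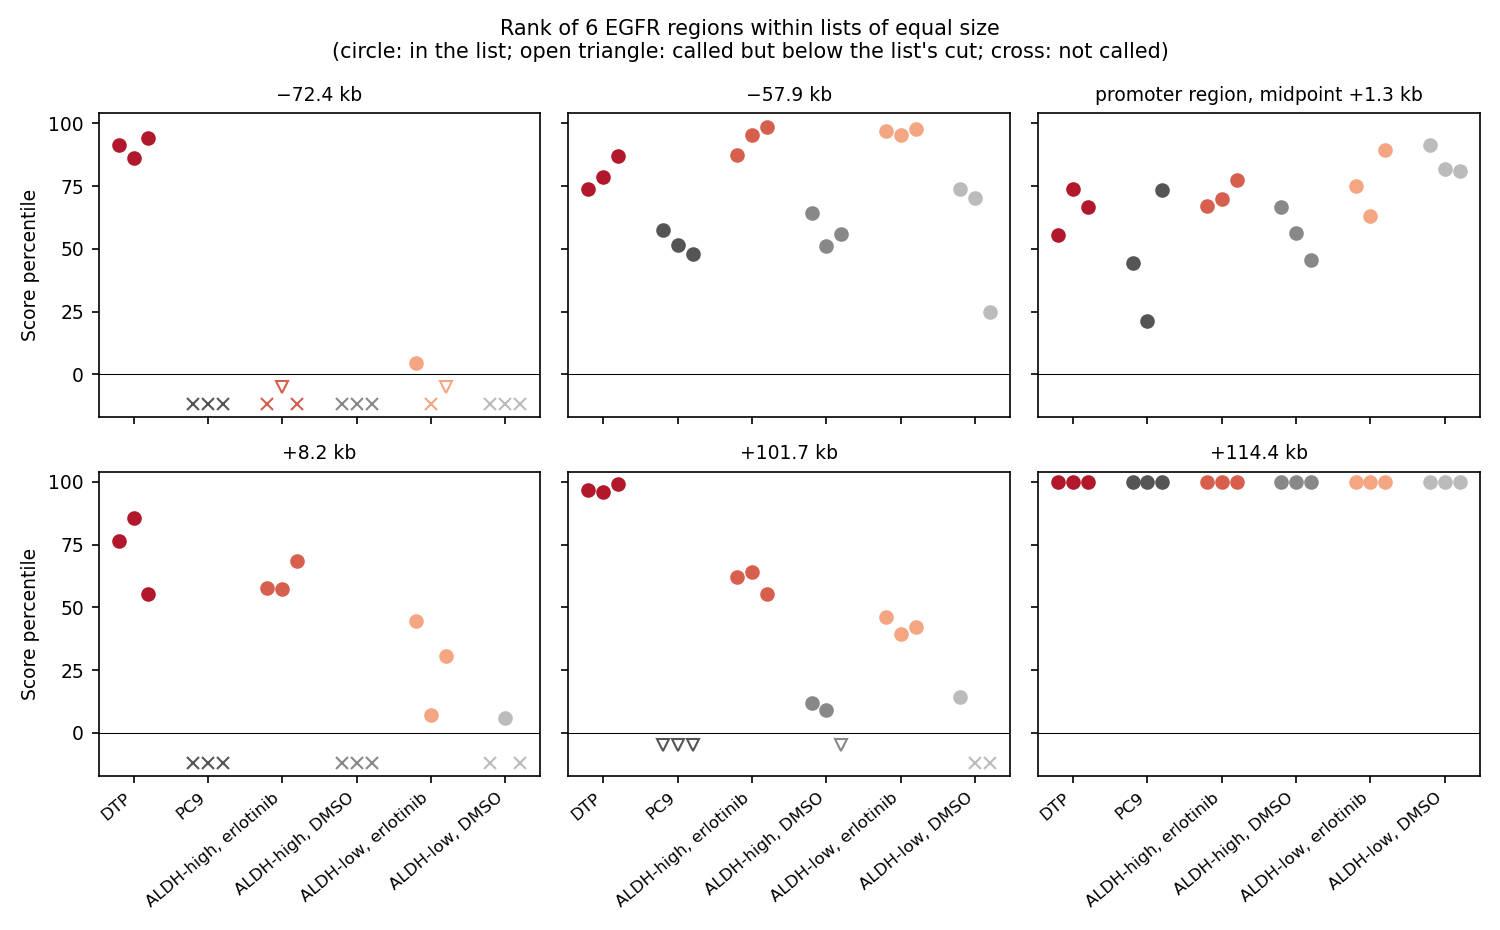
Percentile of the score of 6 EGFR regions in lists of equal size (vertical axis), by group, with 1 point per library. Open triangles are peaks below the cut of the list and crosses are regions not called. The −72.4 kb and +101.7 kb regions stand between 86.3 and 99.3 in DTP and outside the PC9 lists, the −57.9 kb region is between 87.2 and 98.6 in the 6 erlotinib libraries and between 24.8 and 73.7 in the 6 DMSO libraries, and the +114.4 kb region stays at the top everywhere.

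A region upstream of EGFR was called after 12 h of erlotinib in sorted cells but not in persisters, which differ in sorting and time. The −141.1 kb region (54944978 to 54946277) was called in every erlotinib library of sorted cells, 6 in all, and in no DMSO, DTP or PC9 library. Its score was 112, 113 and 202 in ALDH-high erlotinib libraries (percentiles 28.4, 31.1 and 57.3) and 189, 88.4 and 152 in ALDH-low erlotinib libraries (percentiles 52.8, 15.4 and 46). It was the only region in the window gained in both fractions together, 1 of 37 called in sorted cells, where the genome had 1.55%, and none was lost, against 0.16% in the genome. In lists of equal size it was held by 4 of the 6 erlotinib libraries and no region was gained in both fractions, against 0.941% in the genome. At a score of at least 100 it was not gained either, and the 1 region of 29 gained in both fractions was that at +8.2 kb, against 2.09% in the genome. Without ALDH-low DMSO library b, the +8.2 kb region was gained as well, which made 2. An exact conditional permutation test within fractions gave p = 0.005, the smallest possible, with a Benjamini-Hochberg adjusted p of 0.0599 over the 13213 regions whose p could fall under 0.1. Every region gained in both fractions together has this p, so it restates the gain and adds nothing to it. Over the 6480 regions whose p could fall under 0.05, an alternative added after seeing the data, the adjusted permutation p was 0.0294. Under that alternative 48.4% of the 6480 regions passed, as did 2 of the 3 in the window.

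The +8.2 kb region was called in 6 of 6 erlotinib and 1 of 6 DMSO libraries. It stood at percentiles 72.8, 67.5 and 79.6 in ALDH-high erlotinib libraries and at 64.2, 33.3 and 44.1 in ALDH-low erlotinib libraries, against 5.8 in ALDH-low DMSO library b. The exact conditional permutation p was 0.02 (adjusted 0.0843, and 0.0413 over the smaller set). This test covered 5 regions of the window, of which 2 were higher after erlotinib at an unadjusted permutation p under 0.05 and none lower, while the genome had 2775 higher (21% of 13213) and 360 lower (2.72%). None passed adjustment over 13213 regions in the window or the genome.

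Within fractions, ALDH-high cells gained 4 regions of 33 after erlotinib, against 4.52% in the genome, and lost none (0.998% in the genome). They were those at −141.1, +8.2, +67.5 and +228.7 kb. ALDH-low cells gained 1 of 32, at −141.1 kb, against 6.82% in the genome, and lost none (0.887% in the genome). In ALDH-low cells 2 regions were gained without erlotinib library b, DMSO library a or DMSO library b, with −72.4, +101.7 or +8.2 kb as the added one in that order, and 1, at +194.6 kb, was lost without DMSO library a. The +228.7 kb region (55314845 to 55316012) was called at percentiles 34.6, 25.7 and 19.6 in the ALDH-high erlotinib libraries, and was also called in 1 ALDH-low erlotinib library, 2 DTP libraries and 1 PC9 library. With lists of equal size the gains were 1 in ALDH-high cells, the +8.2 kb region, and 0 in ALDH-low cells, where the genome had 3.01% and 3.39%. List length differed with treatment, and its part in the gains was not tested.

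Among regions held throughout, that at −57.9 kb (55027439 to 55030129) ranked higher with erlotinib. In lists of equal size it stood at 87.2, 95.3 and 98.6 in ALDH-high erlotinib libraries, against 64.2, 51.2 and 56 in ALDH-high DMSO libraries. It stood at 97, 95.4 and 97.8 in ALDH-low erlotinib libraries, against 73.7, 70.1 and 24.8 in ALDH-low DMSO libraries. In DTP libraries it stood at 73.7, 78.5 and 87, against 57.3, 51.7 and 47.8 in PC9 libraries, so the groups did not overlap in any of the 3 comparisons. Its called sequence was narrower in ALDH-low cells with erlotinib, at 1197, 1535 and 1173 bp in erlotinib libraries, against 1740, 1965 and 2377 bp in DMSO libraries. In ALDH-low cells 3 of 18 regions were narrower without overlap, against 2.31% in the genome, namely those at −57.9, −32.9 and +114.4 kb. In ALDH-high cells it was 1 of 19, at −32.9 kb, against 2.95% in the genome. Over both fractions together it was 1 of 18, again at −32.9 kb, against 0.163% in the genome.

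Of the 12774 regions in all 12 equal-size lists of sorted cells, 3.37% ranked higher in every erlotinib than in any DMSO library and 3.22% lower. In the window the higher ones were 2 of 18, at −57.9 and +34.2 kb, and the lower ones 2 of 18, at −230.2 and +114.4 kb. At +114.4 kb all these percentiles lay between 99.8 and 100, so the difference is at the top of the lists and no change is read from it. At +34.2 kb the rank can refer to either of the adjacent peaks. The −230.2 kb region (54855941 to 54857128) stood at 54.9, 27 and 35.6 in ALDH-high erlotinib libraries, against 88.5, 94.9 and 92.3 in ALDH-high DMSO libraries. It stood at 47.2, 9.24 and 44.3 in ALDH-low erlotinib libraries, against 75.4, 69.6 and 65 in ALDH-low DMSO libraries. It was also lower in DTP libraries, at 71, 67.8 and 75.2, than in PC9 libraries, at 87.6, 90.6 and 84. Between DTP and PC9, 4 of 18 regions ranked higher and 4 of 18 lower without overlap, against 17.6% and 17.3% of 15104 regions in the genome. Within ALDH-high cells, 4 of 18 ranked higher with erlotinib, against 12% in the genome, and 6 of 18 lower, against 11.9%. Within ALDH-low cells, 2 of 18 ranked higher, against 13.6%, and 4 of 18 lower, against 13%.

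The count by base also showed where peaks differed in extent at 12 h. In ALDH-high cells 5.97% of the 63305 bases called around EGFR were gained with erlotinib and 0.545% lost, against 3.98% and 0.802% in the genome. In ALDH-low cells 2.02% of 61119 bases were gained and 1.88% lost, against 5.92% and 0.707% in the genome. In both fractions together 1.22% were gained and 0% lost, against 1.12% and 0.106% in the genome. The bases lost in ALDH-low cells included 624 bp at −32.9 kb (55054139 to 55054762) and 468 bp at −57.9 kb (55028115 to 55028582), both within regions held by all libraries.

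By presence of a peak, ALDH-high and ALDH-low cells differed in 1 region. Under erlotinib the +67.5 kb region was called in all 3 ALDH-high libraries, at percentiles 13.3, 15.3 and 6.34, and in no ALDH-low library, 1 of 32 regions against 0.893% in the genome. These are low ranks, and the region was in none of the 3 ALDH-high erlotinib lists of equal size. It was also called in ALDH-low DMSO library b at percentile 1.32, and over both treatments the exact conditional permutation p was 0.55. Without ALDH-low erlotinib library a the +228.7 kb region was gained too, 2 in all, and without ALDH-low DMSO library a the +101.7 kb region was the 1 gained under DMSO. Under DMSO no region was gained or lost, against 1.28% and 0.14% in the genome, and none was lost under erlotinib (0.446% in the genome). Over both treatments none of 37 was gained or lost, against 0.0186% and 0% in the genome. The test between fractions covered 2 regions of the window, and neither had an exact permutation p under 0.05, adjusted or not. In the genome 1.57% of 6377 regions were higher before adjustment. Only 1 of the 2, at +183.4 kb, could fall under 0.05, as could 2210 of the 6377, and the +67.5 kb region could not.

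The called sequence inside the gene was longer in DTP than in PC9. Counting the part of the promoter peak after the start, peaks covered 20.3, 18.4 and 18.5 kb of the gene body in DTP libraries, against 13.4, 11.7 and 12.4 kb in PC9 libraries (19.1 ± 1.05 and 12.5 ± 0.844 kb, mean ± SD, n = 3 libraries each). The difference of 6.57 kb had an exact two-sided permutation p of 0.1, the smallest possible, and an adjusted p of 0.4 over 24 tests. Since DTP lists called more sequence in all, 42.1 to 43.4 Mb against 37.6 to 38.6 Mb in PC9, the share was also compared. It was 0.445 ± 0.0309 kb per called Mb in DTP libraries, against 0.329 ± 0.0237 in PC9 libraries (SD, n = 3 each), again without overlap (exact permutation p = 0.1). Upstream of the gene DTP had 17.4 ± 0.57 kb and PC9 16 ± 1.49 kb (SD, n = 3 each), a difference of 1.38 kb with an exact permutation p of 0.3.

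Peaks in the window numbered 29, 29 and 30 in DTP libraries, against 24, 23 and 24 in PC9 libraries (difference 5.67, exact permutation p = 0.1, adjusted 0.4). The excess lay in the gene body and downstream, with 11 gene body regions held by each DTP library, against 7 or 8 by PC9 libraries, and 5 downstream regions, against 2 or 3. Upstream, DTP libraries held 12 or 13 regions and PC9 libraries 11 to 13.

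In called kb, sorted cells showed smaller differences than DTP against PC9. Gene body peaks covered 19.2 ± 2.26 kb in ALDH-high erlotinib and 17.3 ± 1.63 kb in ALDH-high DMSO libraries, and 16.8 ± 1.17 kb in ALDH-low erlotinib and 15.1 ± 1.72 kb in ALDH-low DMSO libraries (SD, n = 3 each). Over both fractions erlotinib added 1.83 kb (exact permutation p = 0.1, adjusted 0.4), and over both treatments ALDH-high cells had 2.3 kb more than ALDH-low cells (exact permutation p = 0.045, adjusted 0.4). Per called Mb the difference between fractions over both treatments was 0.0139 kb (exact permutation p = 0.58, adjusted 0.696). Under DMSO the share was 0.509 ± 0.0471 kb in ALDH-high and 0.519 ± 0.057 kb in ALDH-low libraries (SD, n = 3 each). Under erlotinib it was 0.445 ± 0.0217 kb in ALDH-high and 0.407 ± 0.0355 kb in ALDH-low libraries (SD, n = 3 each), the opposite direction. Per called Mb the direction of the erlotinib difference turned, to −0.0877 kb (exact permutation p = 0.01, adjusted 0.12), with 37.2 to 46 Mb called in erlotinib libraries, against 28.6 to 35.8 Mb in DMSO libraries. The erlotinib difference itself differed by 0.114 kb between ALDH-high and ALDH-low cells (exact permutation p = 0.955). None of the 24 tests passed adjustment, and 1 had an unadjusted permutation p under 0.05. Tests of 3 against 3 libraries cannot fall under an exact permutation p of 0.1, so they could not pass. In the others the smallest possible p was 0.005, with which a test standing alone could not pass adjustment over 24. The lack of passing tests therefore does not show that the groups are alike.

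**Figure D4:**
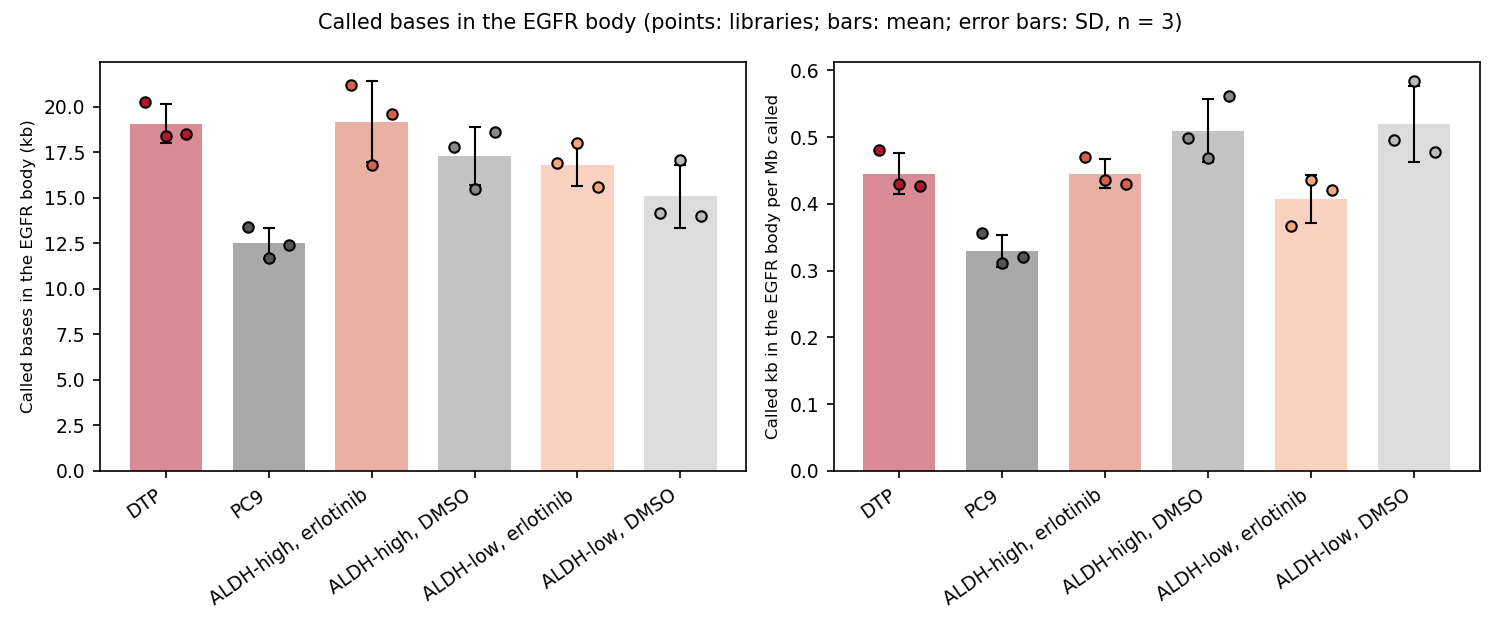
Called bases in the EGFR body in kb (left) and in kb per Mb called in the library (right), by group. Points are libraries, bars the mean of 3 and error bars the SD. The DTP libraries (18.4 to 20.3 kb) lie above the PC9 libraries (11.7 to 13.4 kb) on the left, and PC9 has the lowest share, 0.329, on the right.

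Neither gained nor lost in the lists as deposited were the remaining regions. The 10 regions called in a single library were spread over all groups, with 1 each in DTP and PC9 and 2 each in the sorted groups, and their scores lay between 72.1 and 172. The +139.9 kb region (55225873 to 55227450) was called in 3 DTP libraries, against 1 PC9 library, and in 1 ALDH-high erlotinib and 1 ALDH-high DMSO library, and was gained in DTP with lists of equal size or at 50% coverage. The +261 kb region was called in 3 DTP and 2 PC9 libraries and in 2 of the 12 sorted libraries. Those at −233.6, −216, +183.4 and +194.6 kb were called in 8, 4, 5 and 5 libraries. The −216 kb region was called in no sorted library, and the +183.4 kb region only in sorted libraries. The +194.6 kb region was called in none of the 9 DTP or erlotinib libraries, against 2 of 3 PC9 and 3 of 6 sorted DMSO libraries.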

How the data were processed

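Open chromatin was measured by ATAC-seq in 18 libraries of PC9 cells. The authors deposited 1 peak list for each library. BWA, MACS 1.4.2 and the build hg19 are named in the submitters' processing notes. How reads were trimmed, deduplicated or shifted, and the settings of the caller, are not stated in the labels or headers. The deposited score of a peak has no stated scale and begins at 70, and it was used for ranks and minimum scores inside lists. Lists held 26225 to 45241 peaks on chromosomes 1 to 22 and X, and 3 to 7 peaks per library elsewhere were left out. Read depth is unknown.

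The window and the gene's start and end are hg19 positions. No hg19 annotation was used, so exons, other genes of the pathway and markers of the cell line were not examined. The members and the comparisons were chosen with earlier results of these data known. A region was at the promoter if it came within 1 kb of the annotated start. Regions described singly were that at the promoter, those within 10 kb of 55.014 Mb, those gained or lost, and those held by all libraries, the last mostly as ranges. The regions at +101.7, +34.2 and −57.9 kb differ within regions or ranks and were singled out after seeing their values.

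Tests were exact two-sided permutation tests of the difference in means, with labels exchanged within fractions or treatments over the 12 sorted libraries (smallest p 0.005), and Benjamini-Hochberg adjustment over 24 tests. Single regions were tested over the whole genome by an exact conditional permutation test of the number of libraries that held them. The test of single regions was checked on simulated calls. Erlotinib and DMSO libraries there had the same calling rate in each region, apart from regions set to change. Lists whose length differs with treatment, as in these data, were not simulated. Python 3.11.15, NumPy 2.4.6 and SciPy 1.17.1 were used.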

Additional observations from a re-analysis of the deposited data

How the results depend on the processing

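Called bases and peak counts around EGFR depended on how much was called in a library, and a longer list and a more open locus cannot be told apart. Alternatives were lists of equal size, a score of at least 100, 50% coverage of a region and values per library total (peaks per 1000 peaks, kb per called Mb). Between DTP and PC9 the window peaks and gene body bases kept their direction in each alternative run, with no exact permutation p under 0.1 in 3 against 3 libraries. Depth is unknown.

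Per library total, differences turned. For window peaks, erlotinib minus DMSO was −0.0799 in ALDH-high, −0.146 in ALDH-low and −0.113 in both (exact permutation p = 0.015, adjusted 0.12). ALDH-high minus ALDH-low was −0.0727 under DMSO, −0.00688 under erlotinib and −0.0398 in both, and the signed interaction (ALDH-high minus ALDH-low) was 0.0658, the erlotinib difference being less negative in ALDH-high. For gene body bases, erlotinib minus DMSO was −0.0637 in ALDH-high, −0.112 in ALDH-low and −0.0877 in both, and ALDH-high minus ALDH-low was −0.0101 under DMSO. For upstream bases, DTP minus PC9 was −0.016, erlotinib minus DMSO −0.107 in ALDH-high, and ALDH-high minus ALDH-low −0.0725 under DMSO and −0.0307 in both. With equal lists, the window peak difference was 0 for erlotinib in ALDH-low and for ALDH-high against ALDH-low under erlotinib, −1 for ALDH-high against ALDH-low under DMSO and −0.5 over both treatments, and the interaction was 1. With equal lists the gene body interaction was −0.126 kb and the upstream difference under DMSO between ALDH-high and ALDH-low −0.733 kb. At a score of 100 the gene body interaction was −0.668 kb and the upstream erlotinib difference 0.212 kb.

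Regions gained after erlotinib in ALDH-high cells numbered 2 at a score of 100 (5.54% in the genome) and 1 in equal lists. In ALDH-low cells they numbered 2 (8.67%), at +8.2 and +101.7 kb, and 0. The region gained in ALDH-high against ALDH-low under erlotinib was no longer gained in either setting (0), nor was that of both fractions in equal lists (0). At a score of 100 the 1 region gained in both fractions was at +8.2 kb in place of −141.1 kb. At 50% coverage 7 regions instead of 18 were held by all libraries. The genome share held by all at this setting is not given, so the drop is not read as particular to the window. At 50% coverage 8 of 33 regions were gained in DTP (24.2%), against 7.21% in the genome. Adjusting over the 6480 regions whose exact permutation p can reach 0.05, added after seeing the data, gave 2 single regions past an adjusted 0.05 after erlotinib instead of 0, where 48.4% of regions passed in the genome.

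Leaving out 1 library at a time turned some differences. ALDH-high minus ALDH-low window peaks under DMSO ran between 0 (without ALDH-high DMSO library a) and 3 (without b), and the interaction between −2 and 1. The gene body interaction ran between −0.902 and 1.33 kb. Upstream, erlotinib minus DMSO ran between −0.416 and 0.921 kb in ALDH-high, −1.05 and 0.69 kb in ALDH-low and −0.469 and 0.399 kb in both, ALDH-high minus ALDH-low under DMSO between −0.209 and 1.13 kb, and the interaction between −0.582 and 1.31 kb. Gained regions in DTP numbered 6 to 7, and lost ones 0 to 1 (1 without PC9 library c). These and the following counts have no genome share beside them, and fewer libraries ease the rule for every region. Gains numbered 1 to 2 after erlotinib in ALDH-low (2 without erlotinib library b, DMSO library a or DMSO library b) and in both fractions, 1 to 2 in ALDH-high against ALDH-low under erlotinib and 0 to 1 under DMSO, and losses 0 to 1 after erlotinib in ALDH-low. The letters of the libraries did not pair them (correlations of deviations from −0.0148 to 0.0173). With a replicate block no result passed adjustment, as without it. The smallest possible exact permutation p was then 0.25 for blocks of 3 pairs and 0.03125 for blocks of 6 pairs. Neither can pass adjustment over all tests. No result could therefore have changed its side of the threshold, and nothing is read from the unchanged outcome. The gene body difference between DTP and PC9 was 6.57 kb with the replicate block, with an exact permutation p of 0.25, the smallest possible.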
